A study of Homo sapiens with 8 samples.

Results

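Serpins, the plasminogen activators with their receptor, and secreted or membrane serine proteases were followed in spheroids of the cisplatin-resistant line OVCAR-8R and of its parental line OVCAR-8. The members were taken by gene symbol: serpins of clades A to I, kallikreins (KLK), the TMPRSS and PRSS protease families, and PLAU, PLAUR, PLAT, SLPI, PI3, ST14, SPINT1, SPINT2 and HTRA1. On the arrays 98 such genes were measured by 99 probesets that name 1 gene, out of 18417 genes measured in this way and 33297 probesets in all. The symbols also take in pseudogenes, among them SERPINA13P, SERPINB9P1, PRSS3P2, PRSS30P, PRSS42P, PRSS45P and PRSS59P, and these are counted in their families below. Transcripts were measured with Affymetrix Human Gene ST arrays, 4 for OVCAR-8R spheroids and 4 for OVCAR-8 spheroids. OVCAR-8R, which the sample labels call OVCAR-8C, came from the ovarian adenocarcinoma line OVCAR-8 by exposure to stepwise higher cisplatin, up to 5 μM, and stayed resistant once the drug was withdrawn. OVCAR-8 is the parent without that exposure. Each line is 1 culture lineage, so a difference between the lines cannot be told apart from drift during selection. Spheroids are cell aggregates, here about 300 μm across and grown in agarose molds.

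Serine proteases cut proteins outside and at the surface of cells, and most are made as inactive precursors. Urokinase (PLAU) and the tissue-type activator (PLAT) turn plasminogen into plasmin, a protease that degrades fibrin and matrix proteins, and the receptor PLAUR holds urokinase on the cell surface. Serpins share a common fold. Most of them trap a target protease irreversibly when it cuts their exposed loop, while a few, such as SERPINF1 and SERPINH1, inhibit no protease. SLPI, PI3, SPINT1 and SPINT2 inhibit serine proteases with other folds.

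Signals are log2 of the deposited RMA intensity, and each difference is the OVCAR-8R mean minus the OVCAR-8 mean and carries a standard error estimated by limma (n = 4 arrays per line). A call needed a p below 0.05 after Benjamini-Hochberg adjustment over every probeset tested, together with a change of 2-fold or more. A probeset was not tested where its mean fell in the lowest 25% for OVCAR-8R (log2 signal up to 5.11) and for OVCAR-8 (up to 5.16). Signals of different genes are not ranked against each other, and sums over marker lists serve to compare the lines. The carcinoma markers used to check the cells (PAX8, WT1, MUC16, KRT7, KRT8, KRT18, KRT19, EPCAM and ESR1) lay above the lowest quartile for 9 of 9 genes in both lines. So did 4 of 4 endothelial markers in OVCAR-8R and 3 of 4 in OVCAR-8, so passing this limit does not identify a cell type. PAX8, a marker of the Mullerian lineage, had a mean log2 signal of 10.28 in OVCAR-8R, against 6.51 in OVCAR-8. The log2 of the summed carcinoma markers was 13.48 to 13.61 in OVCAR-8R, against 10.86 to 11.08 in OVCAR-8, a sum weighted to the strongest signals. KRT7, PAX8, KRT8, EPCAM and KRT18 were called higher (5 of 9), KRT19, MUC16 and ESR1 had differences between 0.06 and 0.08, and WT1 had one of -0.86 (adjusted p = 0.000202 from limma), under 2-fold. Of 7 leukocyte markers, PTPRC, CD3D, CD3E and LYZ lay in the lowest quartile in both lines, and the log2 of the summed list was 11.26 to 11.36 in OVCAR-8R and 9.16 to 9.37 in OVCAR-8, where CD68, which carcinoma cells can also make, was the one called marker, at 11.20 in OVCAR-8R and 8.68 in OVCAR-8. For 7 stroma markers it was 9.96 to 10.11 in OVCAR-8R and 8.83 to 9.04 in OVCAR-8, with DCN in the lowest quartile in both lines. Of these, COL1A1 was called higher (2.04) and LUM lower (-1.15, with its OVCAR-8R signal in the lowest quartile), while COL1A2, COL3A1 and PDGFRA had differences between -0.07 and -0.02 and PDGFRB one of 0.60. For 4 liver markers, ALB and AFP in the lowest quartile among them, it was 7.63 to 7.87 in OVCAR-8R and 7.53 to 7.83 in OVCAR-8, and for 4 endothelial markers it was 7.44 to 7.60 in OVCAR-8R and 7.31 to 7.43 in OVCAR-8. The part of these differences in the results below was not tested. In bulk RNA, fewer cells of a type and less RNA per cell cannot be told apart. Lying above the lowest quartile does not place a signal above background, as 2 of 4 liver markers lay there in each line. Fold sizes are therefore uncertain for genes with a low signal in 1 line. Among these are SERPINA1 (5.80), SLPI (5.84), SERPING1 (5.95), PLAU (6.07) and SERPINB8 (6.17) in OVCAR-8. In OVCAR-8R they include SERPINF1 (6.02) and the inhibitor TFPI (5.89).

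Of the 98 members, 15 were higher in OVCAR-8R than in OVCAR-8 spheroids and 2 were lower, 52 were tested and not called, and 29 were left out by the filter on signal. Over all 15931 genes tested, 8.37% were called higher and 8.37% were called lower. With no filter on signal the same 15 and 2 members were called, 15.3% and 2.04% of the 98, where 7.26% and 7.25% of all genes were. The median difference of the 98 members without the filter was 0.06, against -0.03 over all genes, so most members lay near 0. By family, all 3 genes of plasminogen activation were higher, as were 3 of the 4 inhibitors SLPI, PI3, SPINT1 and SPINT2 and 7 of 33 serpins, while 2 further serpins were lower. Of 27 PRSS genes 2 were higher, and none of 15 kallikreins, none of 15 transmembrane proteases and not HTRA1 was called (limma). At an adjusted p under 0.05 and any size of difference, 21 of the 69 members tested were higher, a share near the 27.6% of all genes tested, and 4 were lower, where 30.0% of all genes were. The lines did not overlap for 21 members on the higher side and 6 on the lower side, where 24.0% and 26.9% of all genes behaved in this way.

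**Figure D1:**
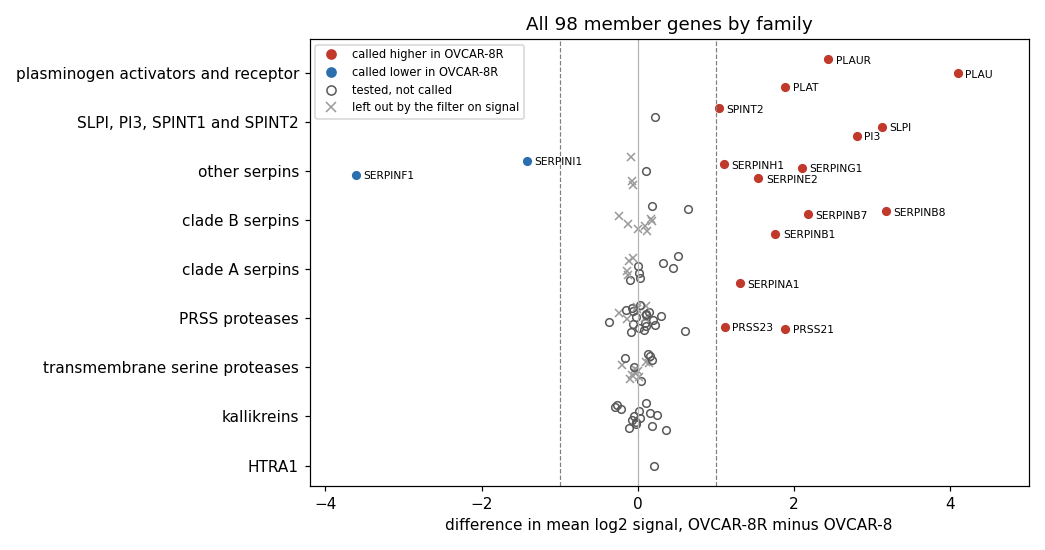
Difference in mean log2 signal, OVCAR-8R minus OVCAR-8, of each of the 98 member genes (x axis), by family (y axis). Red points are the 15 genes called higher, blue points the 2 called lower, open circles the 52 tested and not called, crosses the 29 left out by the filter, and dashed lines mark 2-fold. PLAU lies farthest to the right at 4.09 and SERPINF1 farthest to the left at -3.61, and kallikreins and transmembrane proteases lie close to 0.

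Genes of plasminogen activation were higher in OVCAR-8R spheroids, with urokinase showing the widest gap between the lines among the members. PLAU had log2 signals of 10.09, 10.20, 10.19 and 10.18 on the OVCAR-8R arrays, against 6.08, 6.28, 5.96 and 5.96 on the OVCAR-8 arrays. Its difference was 4.09 (standard error 0.09, adjusted p = 5.96e-10 from limma), or 17.0-fold. The OVCAR-8R arrays were nearly level, and the lowest of them stood 3.81 above the highest OVCAR-8 array. PLAUR, the receptor that anchors urokinase, gave 10.42, 10.37, 10.43 and 10.33 in OVCAR-8R, against 8.06, 7.60, 8.10 and 8.03 in OVCAR-8. It rose by 2.44 (0.11, adjusted p = 8.85e-08), or 5.41-fold, and the OVCAR-8 arrays were close together apart from replicate 2, which was lower. PLAT, which activates plasminogen mainly where fibrin is present, gave 11.25, 11.20, 11.28 and 11.12 in OVCAR-8R, against 9.34, 9.29, 9.36 and 9.31 in OVCAR-8. Its rise of 1.89 (0.07, adjusted p = 1.40e-08) was 3.70-fold, with arrays of each line within a narrow band.

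Serpins that act on these proteases did not move together. SERPINE2 (protease nexin-1), which inhibits thrombin, urokinase and plasmin outside the cell, gave 9.27, 9.62, 9.21 and 9.64 in OVCAR-8R, against 7.98, 7.81, 7.78 and 8.01 in OVCAR-8. It rose by 1.54 (standard error 0.12, adjusted p = 2.61e-06 from limma), or 2.91-fold, and within OVCAR-8R replicates 2 and 4 were the higher pair. SERPINI1 (neuroserpin), an inhibitor of PLAT known from the nervous system, went the other way. It gave 4.33, 4.51, 4.27 and 4.11 in OVCAR-8R, against 5.57, 5.72, 5.47 and 6.12 in OVCAR-8, and fell by 1.42 (0.14, adjusted p = 1.93e-05). Its OVCAR-8R signal lies in the lowest quartile, near background, so the size of that fall is uncertain, and under treat, a limma test of whether a change exceeds 2-fold, it was no longer called (adjusted p = 0.102). SERPINF2, the plasmin inhibitor of blood known as antiplasmin, had a difference of 0.11 (0.15), and the lines overlapped. SERPINA5, the protein C inhibitor, had a difference of 0.33 (0.11, adjusted p = 0.0259), under 2-fold, with a mean of 5.50 in OVCAR-8R, against 5.18 in OVCAR-8. Further inhibitors of the activators were not analysed here.

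Partners of the plasminogen system came from a list written from general knowledge, with earlier results of these data known. Of the 26 measured genes, 5 were higher and 1 was lower in OVCAR-8R. A further 14 were tested and not called, and 6 were left out by the filter, with a median difference of 0.05 over the 26. The calls were 19.2% and 3.85% of the 26, where 7.24% of all genes on the array were called in each direction. ANXA2 and S100A10, which form a complex that binds plasminogen and PLAT at the cell surface, rose by 2.62 (standard error 0.09) and 1.99 (0.14). Their mean log2 signals were 12.19 and 13.03 in OVCAR-8R and 9.57 and 11.04 in OVCAR-8. LRP1, an endocytic receptor that clears complexes of activators and serpins, rose by 1.93 (0.10), and MRC2, a collagen receptor that associates with PLAUR, by 1.57 (0.09). MET, the receptor of hepatocyte growth factor, rose by 1.24 (0.09), and MST1R, a related receptor, had a difference of 0.64 (0.11) and was not called. LRP2, a further endocytic receptor, fell by 1.30 (0.11), and its OVCAR-8R signal lies in the lowest quartile. PLG, the plasminogen gene itself, which the liver makes, had a difference of -0.09 and was not called, and ENO1, a glycolytic enzyme that also binds plasminogen, had one of 0.06.

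**Figure D2:**
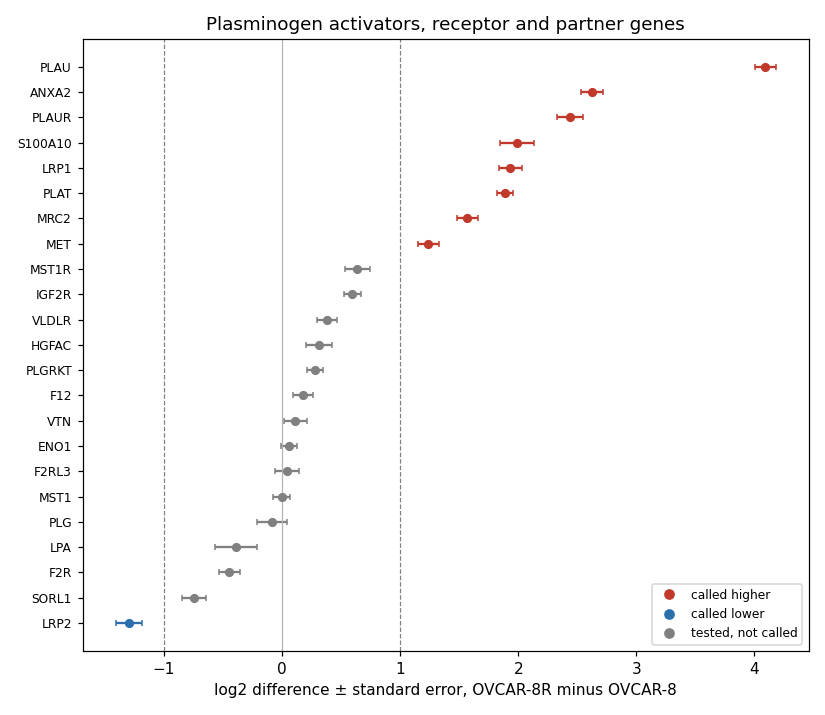
Log2 difference, OVCAR-8R minus OVCAR-8, with bars of 1 standard error (x axis), for PLAU, PLAUR and PLAT and the 20 partner genes that passed the filter on signal (y axis). Red marks genes called higher, blue lower and grey not called, and dashed lines mark 2-fold. PLAU is at 4.09, ANXA2 at 2.62 and PLAUR at 2.44, and LRP2 is at -1.30.

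The elastase inhibitors SLPI and PI3 were among the members that rose most. SLPI, a secreted inhibitor of neutrophil elastase and cathepsin G, gave 8.93, 9.06, 8.83 and 9.03 in OVCAR-8R, against 5.98, 6.22, 5.79 and 5.39 in OVCAR-8. It rose by 3.12 (standard error 0.16, adjusted p = 1.68e-07 from limma), or 8.70-fold. PI3 (elafin), which inhibits elastase and proteinase 3 and can be bound to the matrix, gave 9.77, 9.39, 9.61 and 9.46 in OVCAR-8R, against 6.85, 6.90, 6.83 and 6.43 in OVCAR-8, a rise of 2.80 (0.12, adjusted p = 6.84e-08). For both genes OVCAR-8 replicate 4 was the lowest array and the lines stood far apart. SPINT2, a membrane inhibitor of the hepsin and matriptase type of protease, gave 8.28, 8.17, 8.24 and 8.11 in OVCAR-8R, against 7.24, 7.39, 7.04 and 6.98 in OVCAR-8. Its difference of 1.04 (0.10, adjusted p = 1.29e-05) was the smallest of those called. It fell just under 2-fold without OVCAR-8 replicate 4 (0.98), and without OVCAR-8 replicate 3, and it was not called with treat. SPINT1, its closest relative, had a difference of 0.22 (0.10, adjusted p = 0.0965), and the lines overlapped.

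Among intracellular serpins of clade B, SERPINB8, SERPINB7 and SERPINB1 were higher in OVCAR-8R, 3 of 12 genes, while 2 were not called and 7 were left out by the filter. SERPINB8, an inhibitor that forms complexes with furin, gave 9.26, 9.39, 9.37 and 9.36 in OVCAR-8R, against 6.65, 6.28, 5.96 and 5.81 in OVCAR-8. It rose by 3.17 (standard error 0.16, adjusted p = 1.77e-07 from limma), or 9.02-fold, and the OVCAR-8 arrays were more spread (SD 0.37) than the OVCAR-8R arrays (SD 0.06). SERPINB7 (megsin), known from skin and from the mesangium of the kidney, gave 6.74, 6.32, 6.65 and 6.61 in OVCAR-8R, against 4.71, 4.40, 4.22 and 4.30 in OVCAR-8. It rose by 2.18 (0.13, adjusted p = 4.43e-07), and since its OVCAR-8 signal lies in the lowest quartile the size is uncertain. SERPINB1, which inhibits elastase and cathepsin G inside leukocytes and epithelia, gave 9.45, 9.55, 9.61 and 9.57 in OVCAR-8R, against 7.67, 7.76, 7.74 and 7.96 in OVCAR-8, a rise of 1.76 (0.08, adjusted p = 8.92e-08). SERPINB9, the inhibitor of granzyme B, had a mean of 6.82 in OVCAR-8R, against 6.18 in OVCAR-8. Its difference of 0.64 (0.09, adjusted p = 0.000226) was the one nearest to 2-fold among the members tested and not called. SERPINB5 (maspin), which inhibits no protease and marks many epithelia, had a mean of 4.73 in OVCAR-8R, against 4.98 in OVCAR-8, in the lowest quartile of both lines. The squamous antigens SERPINB3 and SERPINB4, at 4.51 and 4.35 in OVCAR-8R and 4.33 and 4.18 in OVCAR-8, were in that quartile too, and their sequences are so alike that their probesets may share signal.

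Outside clade B, and beside SERPINE2 and SERPINI1 described above, the serpins SERPING1, SERPINH1 and SERPINA1 rose, and SERPINF1 showed the deepest fall of any member. SERPINF1 (PEDF), a secreted protein that restrains blood vessel growth, gave 5.70, 6.12, 5.99 and 6.27 in OVCAR-8R, against 9.71, 9.64, 9.55 and 9.62 in OVCAR-8. It fell by 3.61 (standard error 0.12, adjusted p = 8.68e-09 from limma), which makes the OVCAR-8 signal 12.2-fold that of OVCAR-8R. The OVCAR-8 arrays were tight, and the OVCAR-8R arrays varied more. SERPING1, the C1 inhibitor of the complement and contact systems, gave 7.93, 8.11, 7.83 and 8.31 in OVCAR-8R, against 5.86, 6.13, 5.88 and 5.91 in OVCAR-8, a rise of 2.10 (0.11, adjusted p = 2.89e-07). SERPINA1, the alpha-1 antitrypsin that liver cells secrete against elastase, gave 6.94, 7.34, 6.92 and 7.22 in OVCAR-8R, against 6.04, 5.52, 6.07 and 5.56 in OVCAR-8. It rose by 1.31 (0.16, adjusted p = 6.05e-05), although in OVCAR-8R replicates 2 and 4 were the higher pair and in OVCAR-8 the lower pair. SERPINH1 (HSP47), a chaperone of collagen in the endoplasmic reticulum, gave 9.24, 9.21, 9.06 and 9.17 in OVCAR-8R, against 8.16, 8.06, 8.03 and 8.05 in OVCAR-8, a 2.14-fold rise (standard error 0.07 on the log2 scale, adjusted p = 8.54e-07). The calls of SERPINA1 and SERPINH1 ended with treat. The other 11 clade A serpins comprised 7 that were not called, with differences between -0.09 (SERPINA10) and 0.52 (SERPINA9), and 4 in the lowest quartile. SERPINC1, the antithrombin made by the liver, had a mean of 4.83 in OVCAR-8R, against 4.89 in OVCAR-8, in that quartile, and so did SERPIND1, at 4.94 and 5.01, and SERPINI2, at 4.05 and 4.14.

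**Figure D3:**
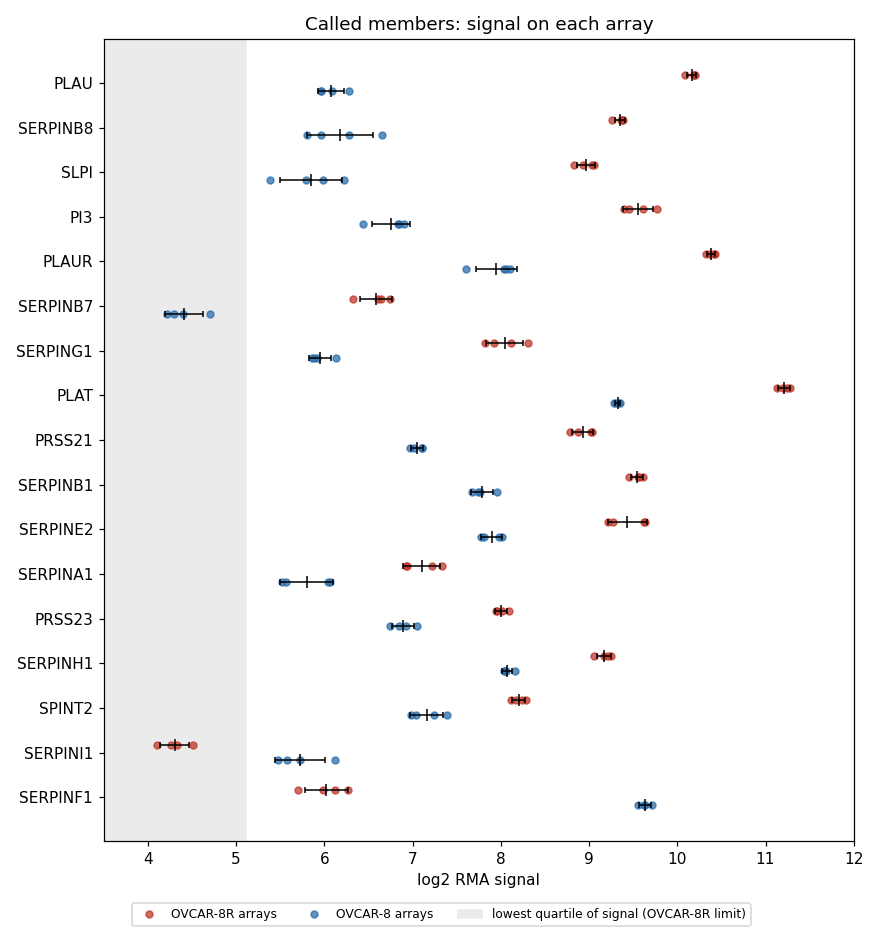
Log2 RMA signal (x axis) of the 17 called members (y axis), with the 4 OVCAR-8R arrays in red above the 4 OVCAR-8 arrays in blue, black ticks and bars for means and SDs, and the lowest quartile of OVCAR-8R signal shaded. No gene shown has overlapping lines, and for PLAU the closest arrays of the lines are 3.81 apart. SERPINB7 in OVCAR-8 and SERPINI1 in OVCAR-8R lie in the shaded range.

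Among the member serine proteases other than the plasminogen activators, PRSS21 and PRSS23 were the ones called. Of the 27 PRSS genes, pseudogenes included, 19 were not called and 6 were left out. PRSS21 (testisin), a protease tethered to the membrane and known from male germ cells, gave 9.02, 8.79, 9.03 and 8.88 in OVCAR-8R, against 7.11, 7.01, 6.97 and 7.10 in OVCAR-8. It rose by 1.88 (standard error 0.08, adjusted p = 5.37e-08 from limma), or 3.69-fold. PRSS23, a secreted protease, gave 7.95, 8.02, 7.94 and 8.09 in OVCAR-8R, against 6.74, 7.05, 6.84 and 6.93 in OVCAR-8, a rise of 1.11 (0.08, adjusted p = 2.21e-06) whose call ended with treat. PRSS12 (neurotrypsin), which cuts agrin at synapses, had a mean of 8.35 in OVCAR-8R, against 7.74 in OVCAR-8, and its difference of 0.61 (0.08) stayed under 2-fold. PRSS35 had the most negative difference of the PRSS genes tested, at -0.37 (0.07). PRSS1, PRSS3 and the pseudogene PRSS3P2, whose sequences are alike, had differences of -0.08, 0.23 and -0.03, and their probesets may share signal.

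Kallikreins, which ovarian tumours often make, and the transmembrane proteases showed no call in either direction (limma). All 15 kallikreins passed the filter, with differences between -0.30 for KLK7, a chymotrypsin-like protease of skin, and 0.36 for KLK1, the kallikrein that releases kinins. Kallikrein means lay between 5.55 and 7.29 in OVCAR-8R and between 5.58 and 7.20 in OVCAR-8. The liver marker APOA1 had 7.02 and 6.95, so passing the filter does not show that kallikreins were expressed. At any size of difference, KLK1 was higher (adjusted p = 0.0210) and KLK7 was lower (adjusted p = 0.0456), and the lines overlapped for both. KLK1 gave 7.33, 7.33, 7.32 and 7.17 in OVCAR-8R, against 6.64 to 7.17 in OVCAR-8. Of the 15 transmembrane proteases, ST14 included, 9 lay in the lowest quartile in both lines, among them TMPRSS4, TMPRSS3 and the 5 genes of the TMPRSS11 group. The 6 tested had differences between -0.16 (TMPRSS6) and 0.18 (TMPRSS5). ST14 (matriptase), an activator of other proteases on epithelia, gave 6.23, 5.79, 6.20 and 5.70 in OVCAR-8R, against 6.07, 6.16, 5.87 and 5.69 in OVCAR-8, so the lines overlapped across their whole width. Its difference of 0.04 (0.15) changed sign when one of 3 arrays was left out (down to -0.05). HTRA1, a secreted protease of the matrix, averaged 7.72 ± 0.03 in OVCAR-8R, against 7.51 ± 0.13 in OVCAR-8 (SD, n = 4 each), with a difference of 0.21 (0.08, adjusted p = 0.0516). The closest arrays of the lines were 0.03 apart.

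Many of these genes lie in clusters, which are given here in the order of the genes. On chromosome 18, 9 members of clade B form a row, in which SERPINB7 and SERPINB8 rose and the 7 others, SERPINB10 between them included, were left out by the filter. On each side of SERPINB10, 1 coding gene that is not among the measured members starts before the next member. Whether these genes are serpins was not examined, so the row may lack serpins. On chromosome 6, SERPINB1 rose, while the pseudogene SERPINB9P1 and SERPINB9 beside it had differences of 0.18 and 0.64. In the row of 11 clade A serpins on chromosome 14, SERPINA1 was called, and its neighbours SERPINA2 and SERPINA11 had differences of -0.14, under the filter, and 0.02. On chromosome 17, SERPINF2 and SERPINF1 are adjacent, with differences of 0.11 and -3.61. In the row of 6 PRSS genes on chromosome 16, PRSS21 was called, and PRSS41 and the pseudogene PRSS30P on its sides had differences of 0.30 and -0.06. PI3 and SLPI lie close together on chromosome 20, with 2 coding genes starting between them, and both rose. Gene order was taken from the RefSeq annotation of GRCh38.p14, in which all 98 members were found.

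**Figure D4:**
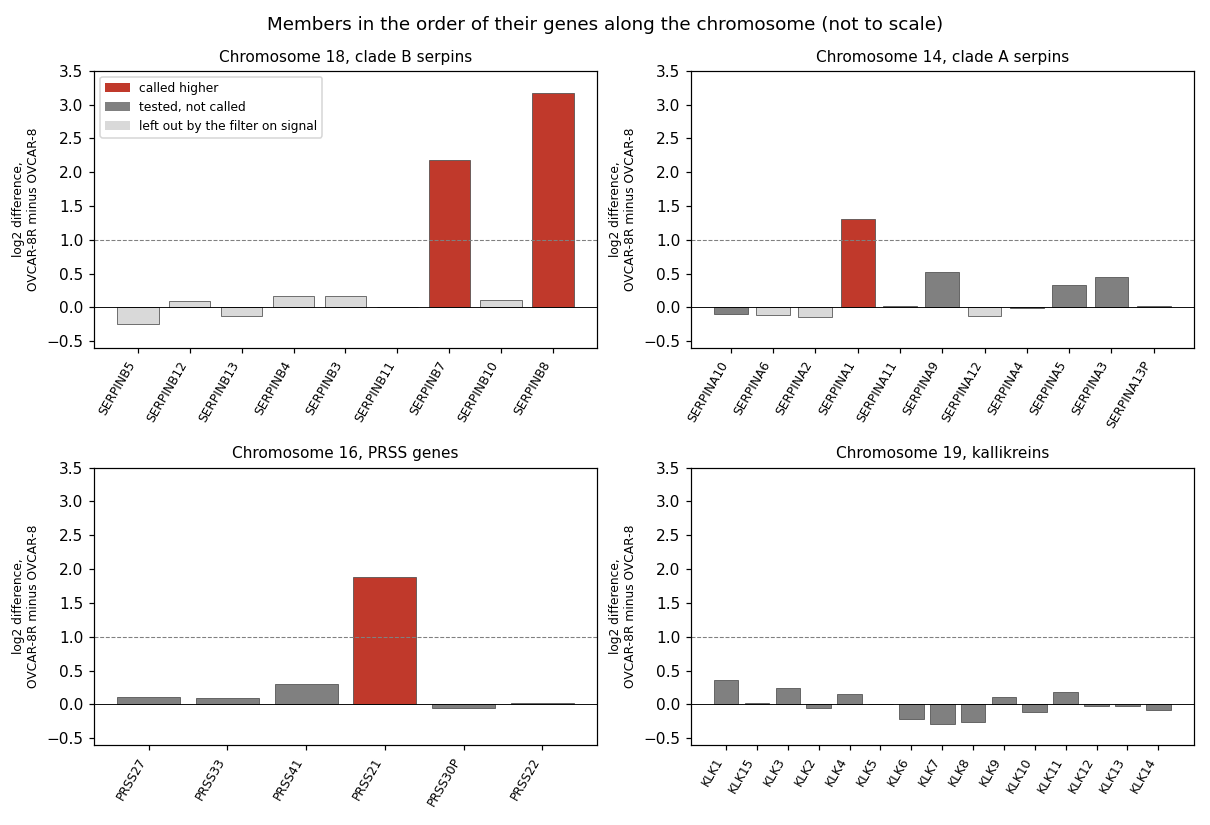
Log2 difference, OVCAR-8R minus OVCAR-8 (y axis), of members in 4 gene clusters, placed in the order of the genes along the chromosome (x axis, not to scale). Red bars were called higher, dark grey bars were tested and not called and light grey bars were left out by the filter, and the dashed line marks 2-fold. SERPINB7 (2.18) and SERPINB8 (3.17) stand out on chromosome 18, SERPINA1 (1.31) on chromosome 14 and PRSS21 (1.88) on chromosome 16, and none of the kallikreins on chromosome 19 reaches the line.

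Start site sequences are shown for PLAU, SERPINB8 and PLAUR, which rose most among the called members that the promoter table covers, so that genes that rose together can be compared. RefSeq promoters (GRCh38.p14) matched 70 of the 98 members and 11 of the 17 called ones. Each sequence below holds the 250 bases before the start site, read in the direction of the gene, from chr10:73910882-73911131 on the plus strand for PLAU, chr18:63969831-63970080 on the plus strand for SERPINB8 and chr19:43670170-43670419 on the minus strand for PLAUR. Capitals mark the AP-1 motif in the loose form TGANTCA, which reads the same on both strands, and the GC box GGGCGG on either strand. The usual AP-1 site has C or G at the middle base. Any base was accepted there, so the AP-1 matches and shares below include looser matches.
PLAU: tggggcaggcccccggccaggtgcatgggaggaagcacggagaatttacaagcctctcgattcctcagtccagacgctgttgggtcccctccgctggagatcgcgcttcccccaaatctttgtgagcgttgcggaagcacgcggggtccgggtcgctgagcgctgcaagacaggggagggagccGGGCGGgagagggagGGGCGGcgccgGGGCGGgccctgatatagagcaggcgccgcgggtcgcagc
SERPINB8: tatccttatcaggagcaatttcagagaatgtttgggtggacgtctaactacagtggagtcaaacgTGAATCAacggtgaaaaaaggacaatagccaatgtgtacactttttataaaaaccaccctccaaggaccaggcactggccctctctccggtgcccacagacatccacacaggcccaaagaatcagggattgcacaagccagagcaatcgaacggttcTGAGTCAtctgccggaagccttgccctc
PLAUR: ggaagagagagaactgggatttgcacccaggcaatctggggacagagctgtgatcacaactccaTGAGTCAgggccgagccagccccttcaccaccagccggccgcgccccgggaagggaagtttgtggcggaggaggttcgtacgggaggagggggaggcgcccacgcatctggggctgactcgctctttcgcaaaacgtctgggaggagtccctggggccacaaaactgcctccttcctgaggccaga
The PLAU sequence held 3 GC boxes, whose first bases lie 66, 51 and 40 bases before the start, and no AP-1 motif, and the window before a second PLAU start farther upstream held neither motif. SERPINB8 held matches to the loose AP-1 form 185 and 28 bases before its start, and PLAUR held 1 at 186. The match at 185 reads TGAATCA, outside the usual site, while the matches at 28 and 186 read TGAGTCA. SERPINB7 has 3 listed starts, and before each of the 2 later ones there were 2 AP-1 motifs. The motif was present in 6.6% of all 35116 promoter windows and in 12 of 94 windows of members (12.8%). By call, it was in 4 of 17 windows of members called higher, 2 of 51 of those not called and 6 of 25 of those left out by the filter. Of the 4 windows, 2 belong to SERPINB7. The GC box was present in 42.6% of all windows and 35.1% of member windows, and the NF-kB consensus on either strand in 10.0% and 18.1%. That consensus was in 17.6% of windows of members called higher and 25.5% of those not called. No window printed here held the NF-kB consensus. A match is a description of the letters, and no factor was measured.

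**Figure D5:**
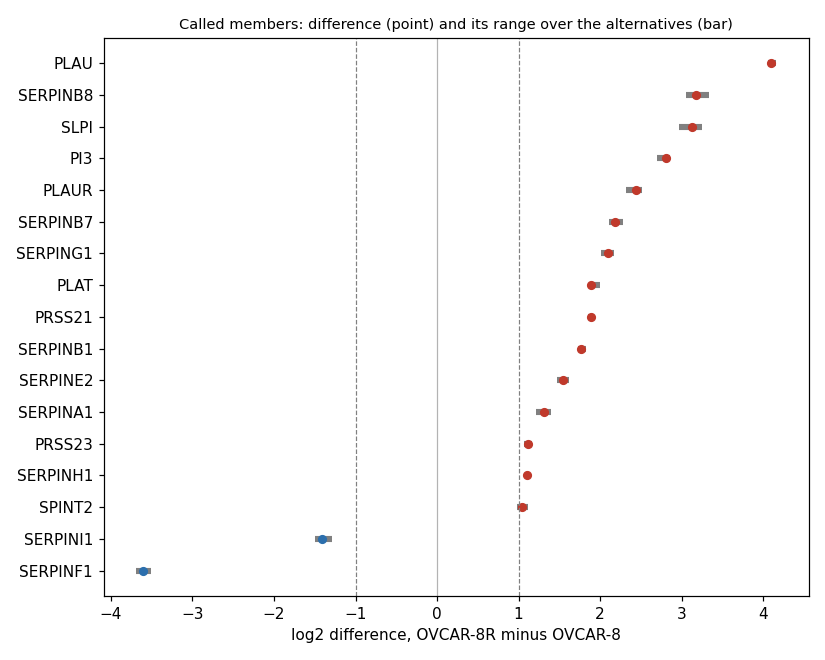
Log2 difference, OVCAR-8R minus OVCAR-8 (x axis), of the 17 called members (y axis) as reported (points, red higher and blue lower) and its range over the other ways of processing the data (grey bars), with dashed lines at 2-fold. PLAU ranged between 4.05 and 4.16, SERPINF1 between -3.69 and -3.50, and the range of SPINT2, 0.98 to 1.12, reaches below the 2-fold line.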

How the data were processed

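The members and gene lists were chosen with earlier results of these data known. Per the labels, the authors extracted total RNA with Trizol, and computed one RMA intensity per probeset in Affymetrix Expression Console. The deposited intensity values are linear and quantile-normalized between arrays, which removes an overall difference in signal between the lines. Log2 was taken of each. Probesets were paired with genes through the platform annotation (19460 with 1 gene, 1754 with several, 12083 unnamed), and no gene was named from a probeset with several genes. A gene with several probesets took its brightest probeset. Differences were fitted over 25628 probesets in limma 3.58.1 (R 4.3.3; lmFit, then eBayes) without a replicate block, which replaces Student's t-test of the methods. The procedure was tested on simulated data. The sample titles number the arrays as biological replicates without saying where they were separated, and if they shared a culture the p-values would reflect technical spread. Arrays give no read depth, and their number limits precision. Named were all called members, a fixed list of plasminogen system genes and inhibitors, and the extremes of families with no call; further members not called, and uncalled partners, were chosen after their values were seen. Alternatives were filters, thresholds, treat, the methods' t-test, an intensity trend, array weights, 3 rescalings, the mean of probesets, a block for replicate number, and omission of single arrays. The estimation of array weights stopped before its convergence tolerance was reached, and the calls it gave for members equal the reported ones.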

Additional observations from a re-analysis of the deposited data

Results flagged for a closer look

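Of 60 sets of 4 arrays (30 named members in each line), 5 held an array whose gap to its nearest neighbour took an unusually large share of the set's whole range. Chance flags about 1 in 20 such sets. OVCAR-8R replicate 1 was low for PLAU (10.09, with the other arrays from 10.18 to 10.20, a share of 0.884), and OVCAR-8R replicate 4 was low for KLK1 (7.17, with the others from 7.32 to 7.33, a share of 0.929). OVCAR-8R replicate 4 was high for SERPINB4 (4.60, with the others from 4.25 to 4.29, a share of 0.878), a signal in the lowest quartile. OVCAR-8 replicate 2 was low for PLAUR (7.60, with the others from 8.03 to 8.10, a share of 0.865). OVCAR-8 replicate 4 was low for PI3 (6.43, with the others from 6.83 to 6.90, a share of 0.855).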

How the results depend on the processing

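Over 22 alternatives, the number of members called higher lay between 11 (treat) and 21 (any size of difference) and stayed at 14 to 15 when an array was left out. The number called lower was 2, and it was 1 with a filter at the median signal, which removed SERPINI1 on this side and SERPINB7 on the higher side (leaving 14), 1 with treat and 4 at any size of difference. Leaving out an array kept it at 2. With treat, the calls of SPINT2, SERPINH1, PRSS23, SERPINA1 and SERPINI1 ended. The call of SPINT2 also ended without OVCAR-8 replicate 3 or 4 (log2 difference 0.999 and 0.98). ST14, not called in any setting, lay between -0.0493 and 0.13 when an array was left out. The other members called kept their direction and, at the 2-fold threshold, their call under these alternatives. SERPINB3, SERPINB4, SERPINB5 and SERPINC1 were not followed through the alternatives. The methods' t-test called 15 and 2 members, with unadjusted p-values and also after Benjamini-Hochberg adjustment. With the replicate number as a block the counts were also 15 and 2, and the block changed no call. Deviations of arrays with the same number correlated unevenly and with differing sign (r of 0.16, -0.32, -0.05 and 0.44 for replicates 1 to 4). Only 1 OVCAR-8R array correlated best with the OVCAR-8 array of its own number, so the numbers were not taken as pairs. Within OVCAR-8R, replicates 2 and 4 both lay above 1 and 3 for SERPINE2, SERPING1, SERPINF1, SERPINA1, SLPI and PRSS23. They both lay below 1 and 3 for PLAT, PLAUR, PI3, PRSS21, SPINT2 and SERPINB7, and the remaining called members showed neither order. Whether these arrays shared a source was not tested. Signals near background limit what can be said of the 29 members left out.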

Other observations

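Inhibitors related to serine proteases outside the member symbols were also measured. The list of 38 genes was written from general knowledge, with earlier results of these data known. OVCAR-8R spheroids had 1 of them at a higher level and 2 at a lower one, 22 were not called and 13 were left out by the filter on signal. The calls were 2.63% and 5.26% of the list, where 7.24% of all genes were called in each direction. TFPI2, a matrix-bound inhibitor of plasmin and trypsin, had a mean log2 signal of 11.42 in OVCAR-8R, against 7.21 in OVCAR-8, a rise of 4.21 (standard error 0.08, adjusted p = 2.79e-10 from limma) or 18.6-fold. TFPI, the related inhibitor of the tissue factor pathway, went the other way, with a mean of 5.89 in OVCAR-8R, against 7.68 in OVCAR-8, and fell by 1.79 (0.14, adjusted p = 3.06e-06). APLP2, a membrane protein with a Kunitz domain, fell by 1.08 (0.08), while APP, its relative, had a difference of 0.64 (0.07) and was not called.

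Of 44 measured serine proteases outside the member families, OVCAR-8R spheroids had 3 at a higher level and 2 at a lower one, 32 were not called and 7 were left out. These calls, 6.82% and 4.55% of the list, were near or below the 7.24% of all genes in each direction. C1R and C1S, the proteases of the first complement component that SERPING1 inhibits, rose by 2.56 (standard error 0.08, adjusted p = 8.96e-09 from limma) and 2.08 (0.06), and their means were 9.37 and 8.32 in OVCAR-8R and 6.81 and 6.23 in OVCAR-8. CFB, the protease of the alternative complement pathway, rose by 2.73 (0.10). PCSK5 and PCSK6, convertases that activate secreted precursors, were lower: PCSK5 fell by 1.49 (0.08), and PCSK6 fell by 1.32 (0.12).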
